A study of Caenorhabditis elegans with 2 samples.

Results

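Weak promoter regions of IRX-1-eGFP in whole Caenorhabditis elegans larvae are described here: 1117 of the 28191 regions in the authors' pooled permissive list on ce11. They were chosen by 4 steps, all of them read from the deposited lists. A region had to overlap no peak of the authors' optimal list, to carry a pooled score of at least 50, to overlap a region in the list of both replicates, and to have its summit in the promoter window of a protein-coding gene. That window covered the 1000 bp before and the 200 bp after the annotated start of the gene. The optimal list holds the 2445 peaks that the authors label as passing a threshold on the irreproducible discovery rate, which measures how well peak ranks repeat between replicates. In the pooled list these peaks are the 2445 highest scores, down to 81.436, and the highest member follows at rank 2446 with 81.431. Members and optimal peaks are thus parted by pooled score, and no member is shown to have failed a replicate test by itself. Without overlap with the optimal list were 25137 pooled regions, of which 3520 reached the score minimum. Of these, 3463 overlapped a region in replicate 1, 3358 in replicate 2 and 3301 in both, and 1117 of the 3301 had a promoter summit. Another 67 regions met every other step but lacked a region in 1 replicate, 19 in replicate 1 and 48 in replicate 2.

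The series holds 1 group with 2 biological replicates. The animals were hermaphrodite L1 larvae of strain OP536 (unc-119(tm4063) III; wgIs536), taken 6 hours after synchronization, which was done by starving larvae hatched after bleaching. Chromatin was sheared by sonication, and IRX-1, tagged at its C-terminus with GFP and FLAG by a stable transgene, was precipitated with an antibody against GFP. All samples carry the unc-119 mutation and the transgene. A single transgenic line and whole animals that mix all tissues limit the model, and no second condition and no precipitation from untagged worms was analysed here. No test between conditions was therefore possible, and no p-value is given. The read depth of the libraries is unknown, since only peak lists were used.

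IRX-1 belongs to the Iroquois family, homeodomain transcription factors that pattern tissues and specify neurons across animals. In C. elegans it is known for its part in the synaptic remodelling of the DD motor neurons, which release the inhibitory transmitter GABA and rewire in young larvae. Homeodomain factors bind short DNA words near promoters and in distal elements, and a promoter is the stretch around a gene start where transcription is set up. Many worm transcripts are trans-spliced to a leader, so the annotated start of a gene can lie downstream of the place where transcription begins.

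Sequences within 50 bp of 8 summits are printed first, from the RefSeq sequence of ce11 (WBcel235), plus strand, 5′ to 3′. They comprise the highest-scoring summit on each of chromosomes II, III, IV, V and X. They also comprise the highest-scoring summits that hold GAGAGA or GACGCA or CGCGCG or ACATGT, and that of the GABA receptor gene unc-49. The choice took only the 615 members on these chromosomes with no annotated exon in the printed stretch. Capitals mark a match on either strand to any of the 9 short words searched, which are described with the sequence results.
cpf-1 and rpl-26 (chrII:8602491-8602591): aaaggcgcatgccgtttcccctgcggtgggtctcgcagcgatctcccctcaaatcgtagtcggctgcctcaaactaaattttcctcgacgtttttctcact
vps-33.1 and sdz-1 (chrIII:8700692-8700792): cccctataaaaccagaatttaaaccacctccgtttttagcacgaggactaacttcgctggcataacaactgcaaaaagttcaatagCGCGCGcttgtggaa
F37C4.5 (chrIV:3874618-3874718): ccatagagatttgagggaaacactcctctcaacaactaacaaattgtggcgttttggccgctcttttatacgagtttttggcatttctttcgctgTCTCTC
somi-1 (chrV:13391687-13391787): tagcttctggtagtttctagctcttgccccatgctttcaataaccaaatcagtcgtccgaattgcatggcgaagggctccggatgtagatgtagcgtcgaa
tmbi-4 (chrX:9150410-9150510): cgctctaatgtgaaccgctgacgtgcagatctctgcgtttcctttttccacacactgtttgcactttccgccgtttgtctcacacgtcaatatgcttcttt
Y39B6A.34 and Y39B6A.33 (chrV:19001139-19001239): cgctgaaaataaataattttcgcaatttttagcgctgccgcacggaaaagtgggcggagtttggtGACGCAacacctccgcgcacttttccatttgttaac
W01A11.7 (chrV:6505561-6505661): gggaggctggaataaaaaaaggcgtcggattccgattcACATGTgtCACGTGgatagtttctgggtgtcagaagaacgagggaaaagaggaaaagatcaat
unc-49 (chrIII:10520355-10520455): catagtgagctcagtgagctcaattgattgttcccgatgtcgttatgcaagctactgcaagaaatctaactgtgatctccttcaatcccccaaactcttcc
The cpf-1, somi-1, tmbi-4 and unc-49 sequences hold none of the words. At vps-33.1 the capitals mark CGCGCG, at F37C4.5 the reverse complement of GAGAGA, at Y39B6A.34 GACGCA, and at W01A11.7 ACATGT with CACGTG close by.

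The pooled score chose the members, and its values are a description only. Scores, given by the authors' peak caller with no stated formula, ran over a narrow band from 50.002 to 81.4 with a median of 61.2. By score the members ranked between 2446 and 6178 of the pooled list, directly under the optimal peaks. The 3 members of highest score lay upstream of gta-1 (81.43), which encodes a GABA transaminase, of tmbi-4 (81.32), and between cpf-1 and rpl-26 (81.23). The 3 optimal promoter peaks of lowest score lay at K08F9.4 and K08F9.1 (81.44), nhr-97 (81.46) and gfi-2 (81.502). At the lower edge were members at cfap-20 (50.002), H10D18.1 (50.008) and the pair C13C4.7 and C13C4.6 (50.01). Regions at vha-16 (49.97), cua-1 (49.96) and unc-44 (49.95), which met the other steps, fell just outside. The edges fell in a continuous run of scores, with no gap between members and the regions next to them. The window had edges too. Its last 100 bp held 57 members upstream and 62 downstream, and the next 100 bp outside held 51 and 28 regions that met the other steps. The deposited −log10 q value of the members ran from 0.399 to 2.23 with a median of 0.868. It reached 1.3, which stands for a q of 0.05, in 279 members (24.98%, 95% Wilson interval 22.5 to 27.6%) and in all 1414 optimal promoter peaks. All members were 410 bp wide with the summit at the centre.

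Both replicates had a region at each member, as the rule required. The score band of the rule leaves little room for members that rank high in both replicates. In replicate 1 their scores ran from 15.4 to 71.1 (median 33.97) and their ranks from 1284 to 29693 (median 4666) among 30000 regions. In replicate 2 the scores ran from 14.3 to 54.7 (median 27.7) and the ranks from 1383 to 24916 (median 4826) among 24949 regions. Among the 2445 highest ranks, the size of the optimal list, stood 106 members in replicate 1 and 123 in replicate 2, and 8 in both. The optimal promoter peaks had 1093 of 1412 in both. The remaining members were 98 with such a rank in replicate 1 only, 115 in replicate 2 only and 896 in neither. Of the 98 in replicate 1 only, 14 lay in the lower part of the replicate 2 list, past its midpoint, and 14 of the 115 lay likewise in the replicate 1 list. The 2 lists differ in length, so ranks are not compared between them. These values share their reads with the pooled score and so are not independent of the rule. Rank 2445 stood near a score of 47.5 in replicate 1 and 38.8 in replicate 2. The pooled score of members was close to the sum of their replicate scores and ended at 81.4. A place above that rank in both lists was therefore nearly closed to members, and the 8 against 1093 is no result about them.

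**Figure D1:**
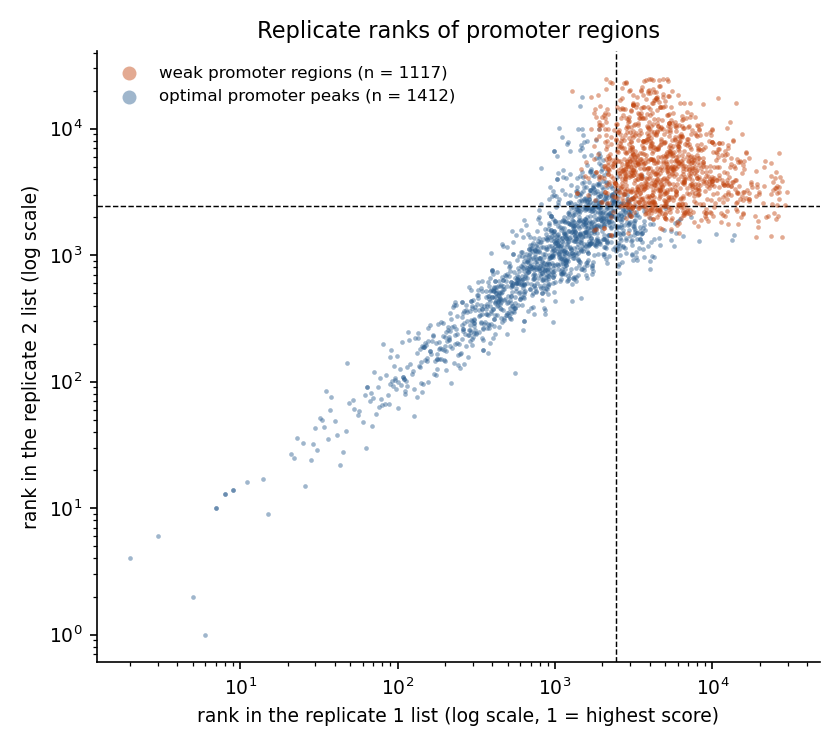
Rank of each promoter region in the replicate 1 list (x axis, log scale) and the replicate 2 list (y axis, log scale), 1 point per region, for 1117 weak promoter regions and 1412 optimal promoter peaks; dashed lines mark rank 2445. The weak regions fill the corner above and to the right of the lines and fan out along both axes, with 8 below both lines. The score band of the rule leaves weak regions little room below both lines. The optimal peaks follow the diagonal.

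Across the members, the replicate scores had a Spearman's rho of −0.20. The same rho was 0.82 across the 1412 optimal promoter peaks, 0.10 across 2093 promoter regions below score 50 that were seen in both replicates, and 0.72 across all 4622 promoter regions in both. These are correlations across regions of the same 2 libraries, and the negative sign goes with the rule. The pooled score was close to the sum of the replicate scores (median ratio 1.00 among members), and the rule holds that sum in a narrow band. The overlap step did not read the summits themselves. Each member is 410 bp wide with its summit at the centre, so overlap also limits how far apart summits can lie. Pooled summits share their reads with the replicates, so summit agreement is not independent of the rule. The replicate 1 summit lay within 50 bp of the pooled summit in 74.6% of members and the replicate 2 summit in 66.7%, a mean of 70.6 ± 5.57% (SD, n = 2). The mean was 87.9 ± 0.0501% for optimal promoter peaks and 50.8 ± 2.40% for the regions below score 50. The summits of the 2 replicates lay within 50 bp of each other in 535 members (47.9%), with a median distance of 54 bp. For optimal promoter peaks the share was 81.4% and the median 18 bp, and for the regions below score 50 the share was 31.3%. The members thus stood between both classes, and for more than 500 of them the replicates placed the summit further apart than 50 bp.

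The 8 members among the best 2445 ranks of both replicates are 6 places, since 2 places hold overlapping pairs of members. Upstream of acl-2, an acyltransferase gene, the member at chrV:10031654-10032063 had ranks 1777 and 1575, but the replicate 2 summit lay 330 bp from the pooled one. A summit 350 bp upstream of cdc-14, a cell cycle phosphatase gene, and 937 bp upstream of ttc-4 ranked 1819 and 1605. Upstream of mstr-1 (chrI:7082032-7082441 and chrI:7082277-7082686) and of F26A3.4 (chrI:7658707-7659116 and chrI:7659074-7659483) each pair of members shared its replicate regions, with ranks 2040 and 1639 at mstr-1 and 2251 and 1448 at F26A3.4. In both pairs 1 replicate's summit sat at 1 member and the other replicate's summit at the other. C15H9.4 (ranks 2255 and 1999) and the shared upstream region of rpl-41.1 and M04F3.5 (2337 and 2198) completed the 8. The next were Y55F3AM.9 with atg-3, an autophagy conjugation enzyme gene (2568 and 2436), and M7.12 (2212 and 2569). At 4 of the 6 places, acl-2, cdc-14, mstr-1 and F26A3.4, the replicates put their summits over 200 bp apart.

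The 20 members of highest pooled score had replicate ranks from 1457 to 8138. At gta-1 (chrIV:10180141-10180550, summit 314 bp upstream) the replicate 1 score was 56.8 at rank 1797 and the replicate 2 score 36.5 at rank 2708, with summits 88 bp to one side and 146 bp to the other. At tmbi-4, a gene of the transmembrane BAX inhibitor motif family (chrX:9150255-9150664), the ranks were 2157 and 6125, and both replicate summits lay within 10 bp of the pooled one. Between cpf-1, a cleavage and polyadenylation factor, and rpl-26, a large ribosomal subunit protein, the ranks were 5416 and 1609. The vps-33.1 region, at the start of a vesicle tethering protein gene, ranked 2598 and 3144, with replicate summits 33 and 8 bp away. At the cuticle collagen gene col-10 (chrV:9165387-9165796) the ranks were 3190 and 2211, and both replicate summits fell on the pooled summit to the base. Upstream of rpl-7, in a stretch shared with rab-11.1, a small GTPase of recycling endosomes, they were 1608 and 3001. The regions at npp-22, M03F4.4, F14H8.8, osm-11, C02D5.4, somi-1, Y71H2AM.3, C23H3.2, R148.3, M163.1, F37C4.5 and Y43F4B.10, with mstr-1 and rpl-41.1, made up the rest. OSM-11 is a secreted Notch co-ligand and NPP-22 a nuclear pore protein. Across the 20, the pooled scores ran only from 80.5 to 81.4.

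Most member summits lay in intergenic DNA, though a smaller share than among optimal peaks. The window reaches 1000 bp upstream of a start but only 200 bp downstream, so the rule itself favours upstream summits in every class. The summit was intergenic in 785 of 1117 members (70.3%, 95% Wilson interval 67.5 to 72.9%), against 81.0% of optimal promoter peaks (interval 78.8 to 82.9%) and 62.4% of the 4937 promoter regions below score 50 (interval 61.1 to 63.8%). At the replicates' own summits the shares were 70.4 ± 0.696% for members and 80.8 ± 0.651% for optimal peaks (SD, n = 2 each). For the regions below score 50 the share was 63.7 ± 0.372%. The same regions were used for both replicates, so this SD covers only the shift of their summits. It does not show how far a class would vary between replicates. The intervals cover counting error only, and neighbouring or overlapping regions are not independent: 60 members overlapped another member. Coding exons held 79 member summits (7.07%), against 0.778% of optimal and 15.1% of the lower-scoring summits. The lower-scoring class required no replicate overlap, except where replicate summits are compared.

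The distance to the gene start followed the same order. The median member summit lay 238 bp upstream of its nearest start, against 196 bp for optimal promoter peaks and 332 bp for regions below score 50. Between 100 and 300 bp upstream lay 29.5% of members, 45.5% of optimal peaks and 19.8% of the lower-scoring regions. Downstream of the start lay 160 members (14.3%), 5.66% of optimal peaks and 17.1% of the lower-scoring regions. At the replicates' own summits the median distance to a start, in either direction, was 243 ± 7.07 bp for members, 197 ± 2.83 bp for optimal peaks and 317 ± 5.66 bp for the lower-scoring regions (SD, n = 2 each).

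**Figure D2:**
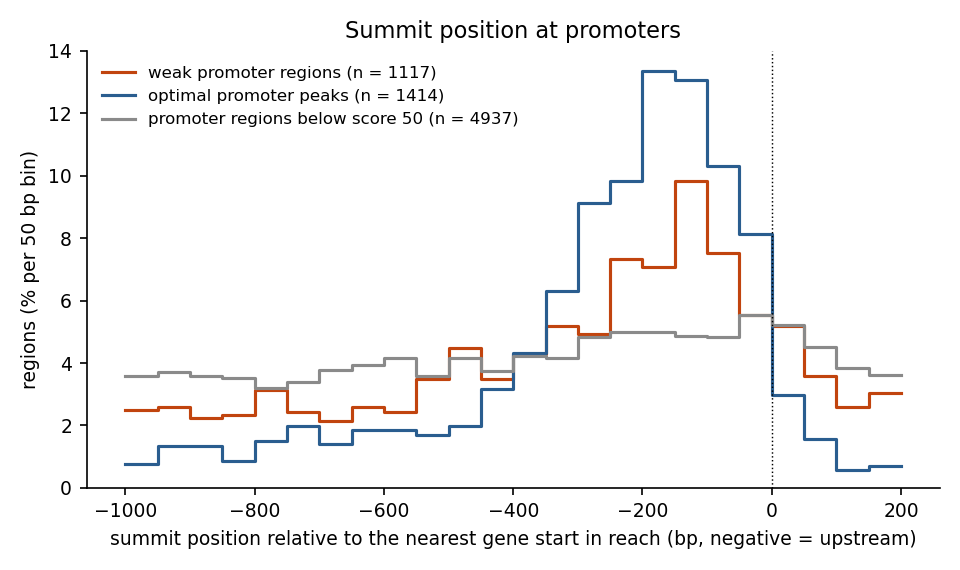
Position of the pooled summit relative to the nearest gene start whose promoter window holds it (x axis, bp, negative upstream), as a percentage of regions per 50 bp bin, for weak promoter regions, optimal promoter peaks and promoter regions below score 50. The weak regions have a lower hump within 300 bp upstream than the optimal peaks and more regions downstream of the start; the lower-scoring regions are nearly flat.

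Divergent gene pairs, whose starts lie on both strands around a shared upstream stretch, were held by 203 members (18.2%, interval 16.02 to 20.5%). The share was 34.9% for optimal promoter peaks (interval 32.5 to 37.5%) and 9.84% for regions below score 50 (interval 9.04 to 10.7%). It was 17.8% at the summits of each replicate for members and 34.9 ± 0.1002% for optimal peaks (SD, n = 2). Examples are the regions between cpf-1 and rpl-26 and between gst-43, a glutathione S-transferase gene, and copa-1, a coatomer subunit gene. At gst-43 and copa-1 the pooled score was 79.4, with ranks 2767 and 3199 in replicates 1 and 2. The X chromosome held 183 members (16.4%, interval 14.3 to 18.67%) and 13.9% of optimal promoter peaks (interval 12.2 to 15.8%). It held 16.04% of the lower-scoring regions, and the intervals of these promoter classes overlap. The share was 19.2% for all pooled regions (interval 18.75 to 19.7%). For weak regions outside promoters it was 23.5% (interval 21.8 to 25.3%). Both intervals lie above that of the members. The rule removed every region that overlaps an optimal peak. The distance from a member summit to the nearest optimal summit had a median of 12446 bp, against 14618 bp for the regions below score 50 and 10972 bp for all pooled regions. Within 1000 bp of one lay 45 members (4.03%) and 3.95% of the regions below score 50.

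The DNA at member summits was richer in G and C than the DNA on either side. Within 50 bp of the summit the mean GC content was 38.8%, against 35.0% and 34.7% in windows of the same width centred 300 bp to the left and right. The difference of 3.88 percentage points fell between 9.98 for optimal promoter peaks and 0.298 for regions below score 50. At the replicates' own summits it was 3.14 ± 0.340 points for members, 9.78 ± 0.0994 for optimal peaks and 0.934 ± 0.295 for the lower-scoring regions (SD, n = 2 each), so the order held in each replicate. Single regions spread widely, with an SD of 10.3 points over members, and 690 members (61.8%) had a summit above the mean of its flanks. Weak regions outside promoters, 2184 in number, had a difference of 3.35 points, and the 67 weak promoter regions missing from a replicate had 6.24. Both are classes of the same score band, so the difference was not confined to members. The part that sequencing bias for GC-rich fragments plays in these values was not tested.

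**Figure D3:**
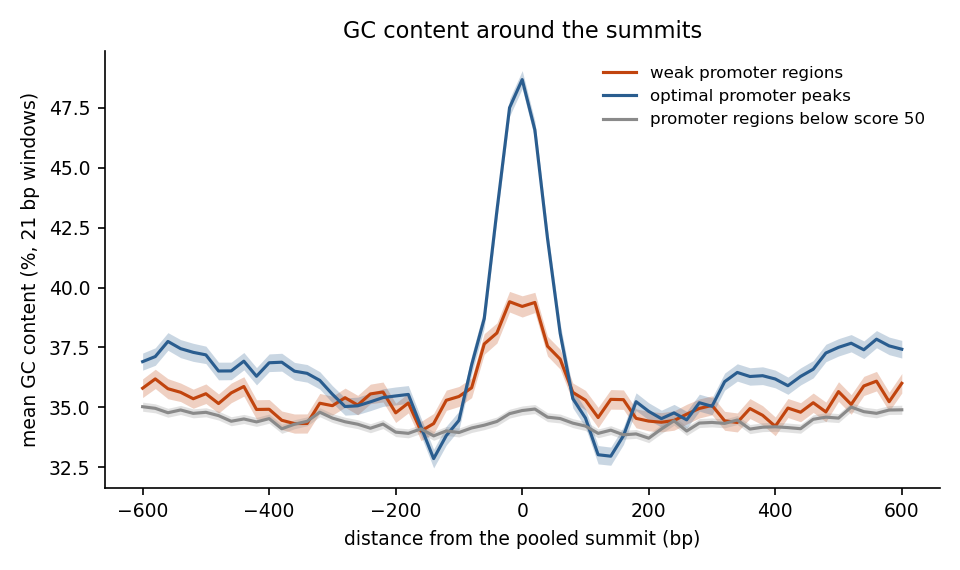
Mean GC content (y axis, %) in short windows at each distance from the pooled summit (x axis, bp) for weak promoter regions, optimal promoter peaks and promoter regions below score 50; bands show the standard error over regions, which are not independent replicates. The weak regions rise from about the flank level of 35.0% to a low, broad top at the summit, under the optimal peaks.

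Within the members the same measures varied with the pooled score. The GC difference was 2.66 points for the 529 members with a score of 50 to 60, 4.66 for the 331 of 60 to 70 and 5.40 for the 257 of 70 and over. Below and above the members it was 0.979 for scores of 40 to 50 and 8.73 for the lower-scoring part of the optimal promoter peaks. Intergenic summits made up 66.9%, 72.5% and 74.3% of the 3 groups of members in that order, and coding exon summits 9.07%, 6.34% and 3.89%. The share with starts on both strands was 17.01%, 20.8% and 17.1%, with no order, and stood at 31.5% in the lower-scoring part of the optimal peaks. These groups were cut from the score that chose the members, so the series is a description of the pooled list.

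**Figure D4:**
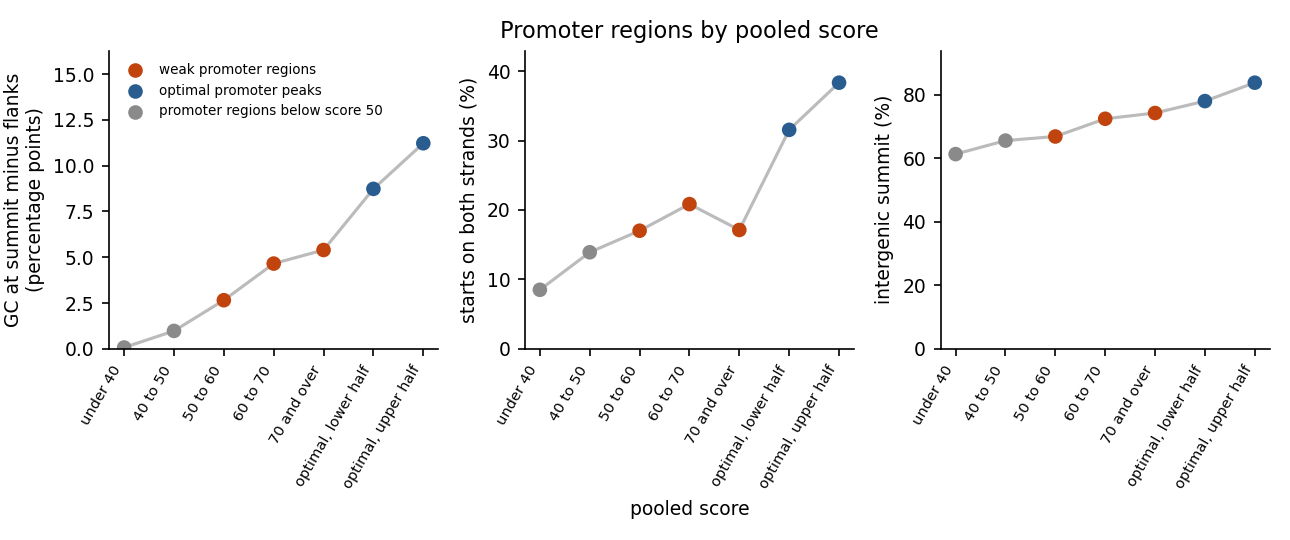
GC at the summit minus flanks (left, percentage points), share of regions with starts on both strands (middle, %) and share with an intergenic summit (right, %) for promoter regions in groups of rising pooled score; points are coloured by class. GC and intergenic share rise with the score through the 3 groups of weak promoter regions, while the share with starts on both strands is 17.01%, 20.8% and 17.1% in them.

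The 9 words were searched on both strands within 50 bp of each summit, and in the same flanks. A palindromic word reads the same on both strands, and copies of GAGAGA or of CGCGCG can overlap each other, as can ACATGT and the reverse complement of TTACA on a strand. GAGAGA, a purine repeat common at worm promoters, was found in 177 members (15.8%, interval 13.8 to 18.1%), against 5.82% and 6.98% of their left and right flanks. It was found in 20.1% of optimal promoter peaks, 7.25% of regions below score 50 and 9.22% of all pooled regions. Among weak regions outside promoters it was found in 14.4% (interval 13.01 to 15.96%), near the share of the members, and among the 67 regions missing from a replicate in 11.9% (interval 6.18 to 21.8%). The printed F37C4.5 sequence carries it as the reverse complement. At the replicates' own summits it was in 15.5 ± 1.01% of members, 19.8 ± 0.200% of optimal peaks and 9.41 ± 0.676% of the lower-scoring regions (SD, n = 2 each).

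GACGCA, as printed at Y39B6A.34, stood in 82 members (7.34%, interval 5.95 to 9.02%), against 2.60% and 2.95% of the flanks. The share was 17.04% in optimal promoter peaks, 3.36% in regions below score 50 and 4.11% in all pooled regions. It was 5.04% in weak regions outside promoters and 14.9% (interval 8.31 to 25.3%) in the 67 regions missing from a replicate. CGCGCG, as printed at vps-33.1, stood in 26 members (2.33%), 0.627% and 0.448% of their flanks, 7.21% of optimal peaks and 1.302% of all pooled regions. It stood in 1.83% of weak regions outside promoters and 5.97% (interval 2.35 to 14.4%) of the 67 regions missing from a replicate. CACGTG, the E-box of basic helix-loop-helix factors, stood in 45 members (4.03%, interval 3.02 to 5.35%), against 2.06% and 1.25% of the flanks. It was in 4.17% of optimal peaks, 2.23% of the lower-scoring regions and 2.57% of all pooled regions. Weak regions outside promoters had 3.34% (interval 2.67 to 4.18%) and the 67 regions missing from a replicate 5.97% (interval 2.35 to 14.4%). At the replicates' own summits it was in 3.22% of members in each replicate and 4.57 ± 0.150% of optimal peaks (SD, n = 2). Base composition differs between these classes, as given above, and its part in the shares was not tested.

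ACATGT, the core word bound by mouse Iroquois proteins in vitro, did not stand out. It was found in 36 members (3.22%, interval 2.34 to 4.43%), with 2.51% and 2.69% in the flanks, 2.48% in optimal promoter peaks and 2.62% in all pooled regions, and these intervals overlap. W01A11.7, printed above, is the member of highest score among the 615 that has it. TTACA was in 18.9% of members (interval 16.7 to 21.3%), 22.1% and 21.5% of flanks, 12.3% of optimal peaks and 20.3% of all pooled regions. TGATAA, a form of the GATA factor site, was in 7.61% of members, 8.59% and 11.01% of flanks, 3.68% of optimal peaks and 9.01% of all pooled regions. CAGCTG was in 2.42% of members, 1.52% and 2.42% of flanks, 3.25% of optimal peaks and 2.11% of all pooled regions. TTTTTTTT was in 10.2% of members, 11.996% and 13.3% of flanks, 4.88% of optimal peaks and 13.9% of all pooled regions. A match is a run of letters and not evidence of a bound factor.

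Of 19973 protein-coding genes, 1294 had a member summit in their window, which is 6.48% of the genes, and 1917 (9.6%) had an optimal summit. These percentages are the background for the gene lists. A member named 1 gene in 894 cases, 2 genes in 213 and 3 or more in 10. Of the 1294 genes, 57 had 2 members. Both a member and an optimal summit were found at 26 genes, 2.01% of the genes with a member and 1.36% of those with an optimal summit. The step that removed overlap with optimal peaks can only lower this number, and by how much was not measured. Among the 26 were lgg-1, an autophagy ubiquitin-like protein (74.8 at the member and 204 at the optimal peak), the endoplasmic reticulum chaperone hsp-3 (66.04 and 375) and the 14-3-3 protein par-5 (66.9 and 105). The lgg-1, hsp-3 and par-5 examples were chosen after their values were seen. By chromosome, genes with a member made up 9.70% of protein-coding genes on III, 7.89% on I, 6.77% on IV, 6.70% on X, 4.87% on II and 4.77% on V. Genes with an optimal summit made up 14.6%, 13.4%, 9.05%, 7.69%, 8.61% and 6.81% in the same order.

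Over the 29 lists, the interval of the share with a member lay above 6.48% for 9 lists and below it for 7, and held it for the other 13. The 9 were synaptic release, proteasome, translation factor, tRNA synthetase, heat shock, histone, trafficking, chromatin and nuclear hormone receptor genes. The synaptic release list had the highest share among the 29 lists, together with the proteasome list. It is broader than the synapse, since it also holds a kinesin gene and an axon outgrowth gene. Of 30 genes in the synaptic release list 10 had a member (33.3%, interval 19.2 to 51.2%) and 6 others had an optimal summit. They include rab-3, the GTPase of synaptic vesicles (pooled score 78.9, ranks 3995 and 2285 in replicates 1 and 2), and unc-116, the kinesin heavy chain (78.6, ranks 3144 and 2403). The vesicle protein synaptobrevin, snb-1 (76.9), ranked 1761 and 7355, and unc-33, a CRMP protein of axon outgrowth (73.3), ranked 2194 and 4701. The rab-3 summit sat at the annotated start itself, and that of unc-33 961 bp upstream. Of 19 genes in the list named for GABA motor neurons 2 had a member and 2 others an optimal summit (10.5% each, interval 2.94 to 31.4%). A place in this list is not evidence that a gene acts in these neurons. The members were at unc-49, the GABA-A receptor (68.96, ranks 4997 and 3126), and snf-11, the GABA transporter (60.5, ranks 7095 and 3040). At both genes the replicate summits lay within 13 bp of the pooled one, though neither member was among the best 2445 of a replicate. The unc-49 sequence is printed above, and the snf-11 summit lies in a noncoding exon 721 bp upstream. No member was found at 29 axon guidance genes, which allows a share of up to 10.3%, and 4 of them had an optimal summit.

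Genes of protein production and turnover had members beside many optimal peaks. Of 33 proteasome genes 11 had a member (33.3%, interval 19.8 to 50.4%) and 12 an optimal summit (36.4%). They include the lid subunit rpn-5 (79.9, ranks 5970 and 2413), the ATPases rpt-1 (77.2, ranks 3410 and 2434) and rpt-3 (69.5, ranks 8879 and 2214), and the core subunit pas-1 (72.003, ranks 2294 and 5612). Of 40 translation factor genes 11 had a member (27.5%, interval 16.1 to 42.8%) and 20 an optimal summit, with 1 gene in both. The initiation factor gene eif-2gamma had ranks 2789 and 4045, and the cap-binding ife-3 had 3747 and 2429. The elongation factor gene eef-1B.2 had ranks 19543 and 1664, and ife-2 had 11623 and 2061. Among ribosomal protein genes 8 of 80 had a member (10.0%, interval 5.15 to 18.5%), among them rpl-26, rpl-7, rpl-41.1 and rpl-2, and 58 an optimal summit (72.5%). Aminoacyl-tRNA synthetases had a member at 5 of 31 genes (16.1%), with aars-2 (77.4) and aars-1 (70.3) first, then yars-2 and iars-1, and an optimal summit at 7.

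The rule keeps members off optimal peaks, and several lists were rich in optimal summits. These were splicing (7 of 61 genes with a member and 25 with an optimal summit), the respiratory chain (5 and 28 of 59), the cell cycle (5 and 19 of 50), chromatin (12 and 29 genes, 11.9% and 28.7%) and trafficking (19 and 46 of 156). In the chromatin list stood isw-1, the ATPase of a nucleosome remodeller (79.4, ranks 5015 and 1959), jhdm-1, sin-3 and the demethylase gene lsd-1. In the trafficking list stood vps-33.1, rab-11.1, copa-1 and rab-3. In the splicing list prp-18, hrpf-1, snr-2 and snr-5 had the highest scores, in the respiratory list sdhd-1, cox-5B, gas-1 and atp-4, and in the cell cycle list cdc-14, efl-2, cdc-48.2 and cdc-7. Of 60 heat shock genes 8 had a member and 20 an optimal summit. There hsp-16.2 and hsp-16.41, divergent small heat shock genes, shared a member of score 68.7 with ranks 15211 and 2012. Another member, of score 69.7, had its summit 757 bp upstream of hsp-16.41, in a 3′ untranslated region within the span of hsp-16.2. Of 81 histone genes 10 had a member and 9 an optimal summit, with his-61 and his-62 sharing a member (73.8, ranks 2133 and 7243), then the H3.3 gene his-72 and the linker histone gene hil-3. Many histone and hsp-16 genes are near-identical copies, so their regions are uncertain where reads could map to several.

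Of the regulatory lists given here, only nuclear hormone receptors had an interval above the background of 6.48%. The intervals of homeobox, signalling, bHLH and heterochronic genes held it. Nuclear hormone receptors, ligand-regulated factors of which the worm has very many, had a member at 26 of 274 genes (9.49%, interval 6.56 to 13.5%) and an optimal summit at 20 (7.30%). The nhr-78 (76.02), nhr-13 (75.6), nhr-56 (74.3) and nhr-238 (72.4) regions came first, at ranks of 3571 and 2445, 4310 and 2407, 2941 and 2111, and 4658 and 3069 in replicates 1 and 2. Homeobox genes had 5 of 103 (4.85%, interval 2.09 to 10.9%), as many as with an optimal summit. They include ceh-20, the worm Pbx gene, whose member ranked 2101 in replicate 1 and 24597 in replicate 2, and unc-42, a neuronal identity factor, at 4181 and 5791. The ceh-89 and ceh-5 genes followed, and nob-1, a posterior Hox gene, had a score of 53.002 and is named after its value was seen. Signalling genes had 7 of 58 (12.1%, interval 5.97 to 22.9%). Among them the Ras gene let-60 ranked 1767 and 13196, the kinase gene akt-2 2207 and 5849, and the SMAD gene sma-4 3040 and 13749, while sma-9 ranked 12481 and 3142. The bHLH list had 2 of 40, mxl-3 and mml-1, and the heterochronic list 1 of 15, dcr-1, the Dicer gene (67.4), with 6 optimal summits.

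Large families with tissue-restricted members had shares near or below the background. Detoxification genes had 12 of 185 (6.49%, interval 3.75 to 10.99%) with a member and 3 (1.62%, interval 0.553 to 4.66%) with an optimal summit, led by gst-43, ugt-61, gst-33 and gst-24. Chemoreceptors had 14 of 1310 (1.07%, interval 0.638 to 1.79%) and 10 optimal summits. F-box and MATH genes had 14 of 412 (3.40%), collagens 5 of 178 (2.81%), neuropeptides 3 of 145 (2.07%), ion channels 3 of 175 (1.71%) and C-type lectins 1 of 240 (0.417%). The neuropeptide members were flp-23, nlp-24 and ins-10, the channel members lgc-26, lgc-46 and lgc-25, and the lectin member clec-178. The flp-23 summit lay 25 bp from the start of a tRNA gene and 290 bp upstream of flp-23. Of 36 body wall muscle genes 4 had a member (unc-97, pat-4, unc-78 and act-1), a share of 11.1% (interval 4.41 to 25.3%). The share was 1.18% for 85 intestinal genes, with asp-4, and 4.17% for 24 epidermal genes, with nhr-23.

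**Figure D5:**
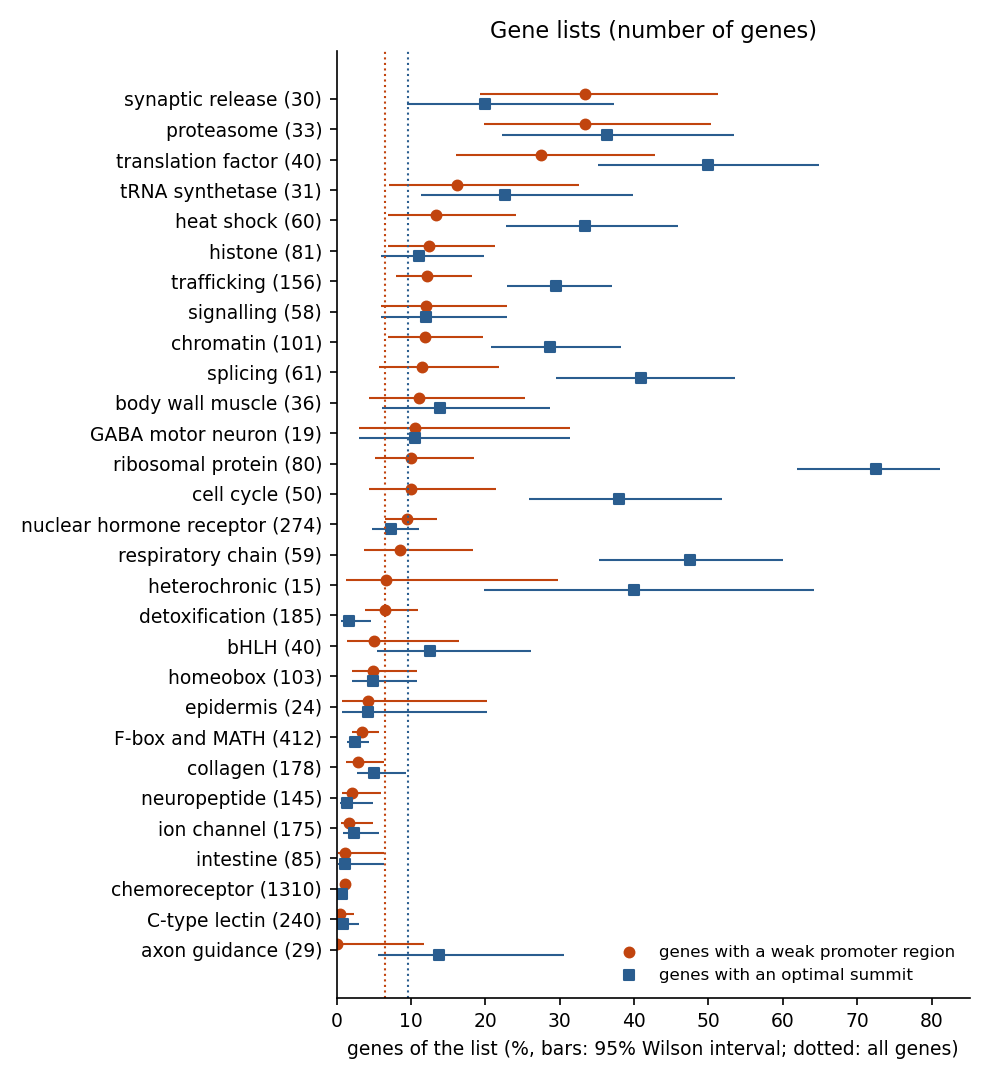
Percentage of the genes of each list (x axis) with a weak promoter region (circles) and with an optimal summit (squares); bars are 95% Wilson intervals, dotted lines the values over all protein-coding genes, and list sizes stand in brackets. For weak regions, 9 lists have an interval wholly right of the 6.48% line, from nuclear hormone receptors at 9.49% to synaptic release and proteasome genes at 33.3%, and ribosomal protein genes show the widest gap, with 10.0% against 72.5%.

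The irx-1 gene itself (chromosome I, 9536465 to 9540966) had no member and 1 optimal summit in its window, and 1 member lay within 20 kb of its start. The unc-119 gene had neither and had 1 member within 20 kb. A tRNA gene started within 200 bp of the summit in 12 members (1.07%, interval 0.616 to 1.87%), against 1.91% of optimal promoter peaks (interval 1.32 to 2.76%) and 1.06% of all pooled regions. A snoRNA gene did so in 3 members (0.269%, interval 0.0914 to 0.787%), against 27 optimal peaks (1.91%) and 0.482% of all pooled regions. A piRNA locus did so in 18 members (1.61%) and 7 optimal promoter peaks (0.495%), against 3.73% of all pooled regions. The tRNA case nearest its gene start, 1 bp away, was the member at F21C3.7 and tyr-3 on chromosome I (71.6), chosen after its value was seen.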

How the data were processed

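Per the notes deposited beside the lists, the authors made permissive and optimal peak lists from alignments and a control file, for each of 2 biological replicates and for the pooled replicates. The deposited score of each region (column 7) has no stated formula, and the deposited −log10 q value saturates at the highest value of each list. The peak caller, aligner, IDR cutoff, treatment of multi-mapping reads and versions were not given in the sources used here. Depth is unknown, so intervals cover counting error only.

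Members and gene lists were chosen with earlier results of these data known. Summits were set against Ensembl release 115 and the RefSeq sequence of WBcel235, which ce11 names; coordinates are 1-based. Overlap meant 1 bp. Where several replicate regions overlapped a pooled region, the one with the highest score was used. Python 3.11.15, pandas 2.3.3, scipy 1.17.1 and matplotlib 3.10.9 were used, and overlap, window and sequence steps were tested on simulated data. Shares have 95% Wilson intervals; a count of 0 is given the limit of 3 counts. With 1 group of 2 replicates, values at each replicate's own summits are mean ± SD (n = 2) and nothing was tested. Both replicates use the same regions of a class, so this SD covers only the shift of summits. Of 1414 optimal promoter peaks, 1412 had a region in both replicates. Genes named are those of the 20 members of highest score, of the 10 with the best lower rank over both replicates, up to 4 per list by score, irx-1, unc-119, the GABA list and the score edges. Others are marked in the text as chosen after their values were seen. Alternatives varied the score minimum, window, overlap, flanks, build and the replicate overlap steps.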

Additional observations from a re-analysis of the deposited data

How the results depend on the processing

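Of 72 recomputed values, 49 stayed within their interval or spread or, for counts of regions, within 1.5 times. The other 23 moved further, 9 of them word shares in a wider window that holds the narrower one. No GC difference and no rho changed sign. Counts, shares and absolute distances cannot change sign, so for them this says nothing. A score minimum of 40 gave 2040 regions, a median distance to a start of 264.5 bp and a GC difference of 2.65 points. A minimum of 60 gave 588 regions, 73.3% intergenic summits, 214.5 bp and 4.98 points. Against these, the members had 235 bp and 3.88 points. A window of 500 bp upstream to 100 bp downstream gave 772 regions, 14.8% with starts on both strands, 74.4% intergenic summits and 165.5 bp. A window of 2000 bp upstream gave 1554 regions, 22.5% and 424 bp. The window itself bounds the distances and the reach to both strands; the cause of the intergenic value was not tested. Summits over 1000 bp from optimal peaks had a median of 225 bp, and GC over 100 bp either side, with flanks 500 bp away, differed by 2.097 points; the cause was not tested. Dropping the overlap step for replicate 1 or replicate 2 gave 1136 and 1165 regions, with all 1117 members among them. The pooled list and its scores use the reads of both replicates, so no replicate could be left out of these. Of weak regions in both replicates, promoter or not, ce10 gave 3259 and ce11 3301. With the pooled summit inside both replicate regions 1056 members were left, and rho was −0.22. Requiring overlap of 50% of the pooled region also left 1056, with the same shares, distance and GC difference. The 2 alternatives are therefore not separate checks, though both are counted above. No paired analysis was possible because there is a single group. The lists carry no read counts, the score scale is unstated, and a single line in whole animals allows no test of what the weak regions are.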
